A study of Mus musculus with 12 samples.

Results

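Integrins are the receptors with which cells hold the extracellular matrix, and focal adhesions are the protein plaques that tie them to the actin cytoskeleton. The 41 genes described here were taken from the count files by symbol. They comprise 15 alpha and 8 beta integrin subunits and 18 proteins of the adhesion plaque. All 41 were found among the 35976 genes listed and passed the filter on low counts that left 18853 genes for testing. They were divided by the cells known to use them into 8 leukocyte genes (Itgal, Itgam, Itgax, Itgb2, Itgb7, Itga4, Fermt3 and Ptk2b), 6 epithelial genes (Itga2, Itga3, Itga6, Itgb4, Itgb6 and Fermt1) and 27 stromal or broadly expressed genes.

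RNA was sequenced from back-skin scars of male mice aged 8 to 12 weeks, with 3 mice in each of 4 groups: sham and traction in Tem1WT/WT mice, and sham and traction in Tem1lacZ/lacZ mice. All mice received a 1.5-cm wound and, 6 days later, a plastic device. The device was lengthened by 1 mm/day to 8 mm in all in the traction groups and was left as it was in the sham groups. In Tem1lacZ/lacZ mice the lacZ reporter stands in place of the only exon of Tem1 (listed as Cd248) in every cell, so the genotype is not restricted to fibroblasts, and this line had been backcrossed to C57BL/6 J mice for 10 generations. Cd248 had 3883 to 16413 counts in the Tem1WT/WT libraries and 0 to 13 in the Tem1lacZ/lacZ libraries.

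An integrin is a pair of 1 alpha and 1 beta subunit, and the pair sets the ligand. Receptors with Itga5, Itga8 or Itgav read the RGD motif of fibronectin, vitronectin and latent TGF-β. Those with Itga1, Itga2, Itga10 or Itga11 bind collagens, and those with Itga3, Itga6 or Itga7 bind laminins. Talins and kindlins switch the receptor on from inside the cell, the ILK, PINCH and parvin complex and vinculin fasten it to actin, and FAK, Src, paxillin and p130Cas pass the signal on. In wound beds these receptors serve fibroblasts that pull on collagen and fibronectin, keratinocytes that hold the basement membrane and leukocytes that leave the vessels.

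Of the members called with traction in Tem1WT/WT mice Itga5 and Zyx had the largest fold changes, and Itgam was the most abundant leukocyte alpha subunit per length, so sequences from their upstream windows are shown. A window holds the 250 bases before a transcript start in RefSeq, read 5′ to 3′ on the gene's strand in GRCm38.p6. The windows of Itga5 and Itgam lie directly before the gene. That of Zyx lies wholly inside the gene, before an inner start, so only 30 bases around its AP-1 match are given. Capitals mark the AP-1 motif TGANTCA.
Zyx (chr6:42349696-42349725, plus strand): agtgcggacagTGAGTCAgttctccagcac
Itga5 (chr15:103366792-103367041, minus strand): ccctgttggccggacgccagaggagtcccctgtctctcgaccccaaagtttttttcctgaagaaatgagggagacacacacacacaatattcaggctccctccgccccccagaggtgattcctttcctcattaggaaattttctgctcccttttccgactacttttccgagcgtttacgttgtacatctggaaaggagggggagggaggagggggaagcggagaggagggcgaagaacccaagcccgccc
Itgam (chr7:128062390-128062639, plus strand): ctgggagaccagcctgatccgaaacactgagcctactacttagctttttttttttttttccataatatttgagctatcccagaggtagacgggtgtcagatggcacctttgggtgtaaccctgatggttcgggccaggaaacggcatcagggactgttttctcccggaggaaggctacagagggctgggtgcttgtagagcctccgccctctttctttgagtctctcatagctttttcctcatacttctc
Windows were found for 30 of the 41 genes, 36 in all, and were searched on both strands. Of the 36, 18 lie outside the RefSeq span of their gene, 8 partly inside and 10 wholly inside, where the transcript start is not the outermost one. The AP-1 motif lay 121 bases before the inner start of Zyx (196 bases after its outer start) and 32 bases before the outer start of Itgax, which makes 2 of 30 genes against 7.82% of all 27025 genes with a window. The TEAD motif GGAATG was found in windows of Itga10, Itgb1 and Vcl (14.4% of all genes), the CArG box of serum response factor in those of Fermt2, Itgb6 and Vcl (1.62%), and the PU.1 motif GAGGAAGT in those of Itga11, Itgav, Itgb6 and Lims1 (2.79%). The matches of Itgav, Itgb6 and Lims1 lie inside the gene before an inner start, and that of Fermt2 lies just inside it. None of the 4 motifs was seen in the windows of Itga5 and Itgam. The exact PU.1 letters GAGGAAGT were not seen in those of the 5 leukocyte genes that had a window. With a share of 2.79% of all genes, their absence from 5 genes says nothing about these genes, and looser forms of the motif were not searched. The matches did not overlap each other and are a description of these letters.

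Library totals were 41536788 to 64644293 counts. Levels are given as CPM, the counts scaled by TMM to a library size in common, in the order of replicates 1, 2 and 3. Differences are log2 fold changes from edgeR's quasi-likelihood test in 1 model of the 4 groups, with Benjamini-Hochberg adjusted p over the 18853 genes. That test gives no standard error. The SE printed here was derived as the absolute log2 fold change over the square root of the F statistic. An adjusted p under 0.05 makes a DEG. The 3 libraries of a group come from different mice, and the p-values measure the spread between them. In RNA from whole scars, more cells of a type and more RNA per cell cannot be told apart. The members with the fewest counts were Itga10 and Itga8, with at least 66 and 88 counts in every library.

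Libraries of 1 group stood apart from each other for these genes. In the traction group of Tem1WT/WT mice, 7 of the 8 leukocyte genes had their highest value of all 12 libraries in replicate 1, and 18 of the 27 stromal genes had theirs in replicate 3. The summed CPM of 12 neutrophil markers was 7296 in that replicate 1, 689 in replicate 2 and 332 in replicate 3, against 116 to 121 in the sham group. The summed CPM of 8 fibroblast markers was 20469.5, 31298 and 54599 in the same libraries, against 12669 to 17176 in the sham group. In Tem1lacZ/lacZ mice, sham replicate 2 was the lowest of its group for 34 of the 41 genes and traction replicate 1 was the lowest of its group for 30. That traction library had the highest keratinocyte marker sum of all, 40731 against 10723.5 to 19952.6 in the other 11, and the fibroblast sum of its group was 10470.2, 23910.5 and 20459.6. All markers of these 3 lists were found in the files, and none was at 0 in all libraries. Whether these cell types had a part in the values below was not tested.

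**Figure D1:**
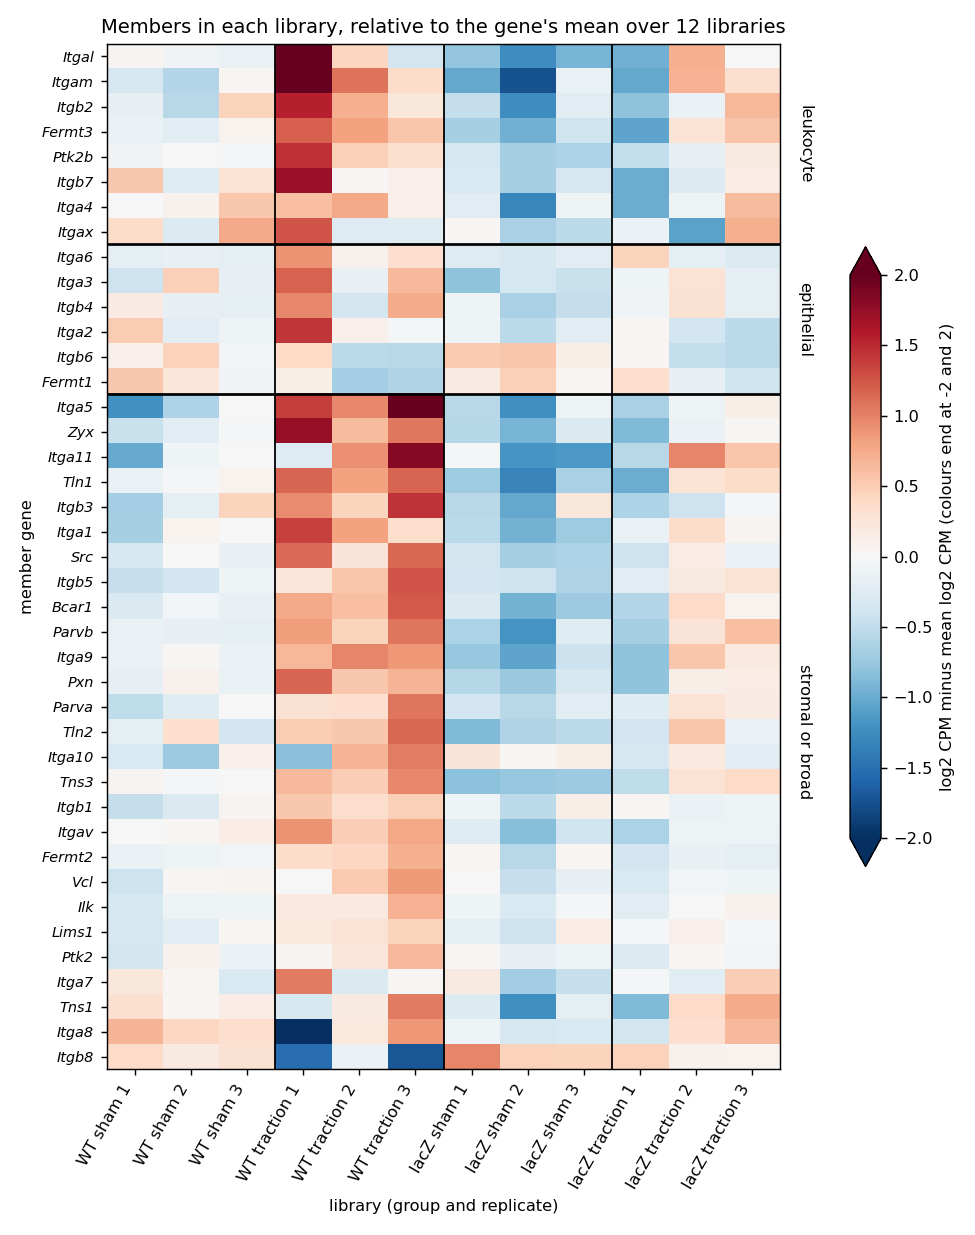
Heat map of the 41 genes (rows, grouped as leukocyte, epithelial and stromal or broad, each ordered by the change with traction in Tem1WT/WT mice) in the 12 libraries (columns), coloured by log2 CPM minus the mean of the gene over all libraries. The leukocyte rows are reddest in replicate 1 of the Tem1WT/WT traction group (7 of 8 genes highest there), and the stromal rows in replicate 3 (18 of 27 highest there).

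Per length of exon, Itgb1 stood far above the other integrin genes. This beta subunit, the shared partner of most matrix receptors, was at 166 to 241 RPKM (CPM per kilobase of exon) in the sham group and 296 to 337 in the traction group of Tem1WT/WT mice. Itgb5, a partner of Itgav, followed with 40.7 to 52.4 RPKM in the sham group, then Itgb2, the beta subunit of the leukocyte integrins, with 28.7 to 57.4. Those ranges overlapped, so their order was not resolved, whereas the range of Itgb1 overlapped with neither. Itga6, which forms the hemidesmosome receptor of basal keratinocytes, was the highest alpha subunit in the sham group at 30.8 to 31.7 RPKM, with Itgam next at 18.4 to 28.5. Of the 4926 exon bases of Itgam, 3450 also belong to Gm49368 on the same strand. How reads there were counted is not known, so the level of Itgam and its order against Itga6 are not settled. In the traction group of Tem1WT/WT mice Itgam ranged from 35.8 to 138 RPKM and Itga6 from 37.1 to 65.3. Their ranges overlapped there and no order was resolved. Itga5 was 8th of the 23 subunits by mean RPKM in the sham group and 6th in the traction group. Itga10, best known from cartilage, was the lowest in both. The exon lengths came from GENCODE vM21 and may differ from the annotation the authors counted on.

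**Figure D2:**
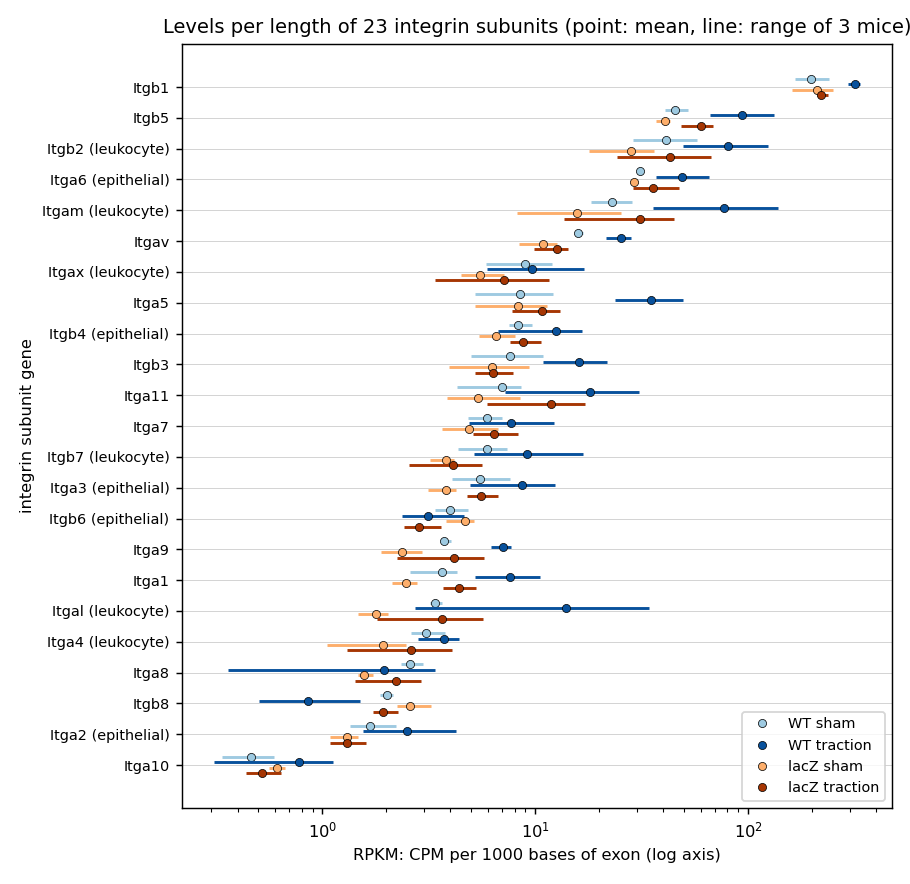
Levels per length of the 23 integrin subunit genes (RPKM, log axis), with the mean (point) and range (line) of the 3 mice of each group. Itgb1 lies above all others in each group, and the Itga5 range in the Tem1WT/WT traction group, 23.7 to 49.7, lies above those of the other 3 groups.

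The first question was which of these genes responded to traction in mice with Tem1. In Tem1WT/WT mice 8 of the 41 genes rose and 0 fell, while of all genes tested 5.61% rose and 3.54% fell. All 8 were stromal or broadly expressed: the receptor subunits Itga1, Itga5 and Itgb5, the links Parva and Fermt2, and the signalling proteins Src, Bcar1 and Zyx. None of the 8 leukocyte or 6 epithelial genes passed the threshold in edgeR, while DESeq2 called Itgal, Itgam, Fermt3 and Ptk2b of the former and Itga6 of the latter. At an unadjusted p under 0.05 the test gave 27 higher genes (16.7% of all genes) and 2 lower ones, Itgb8 and Fermt1 (2763 of all 18853 genes). In 23 genes every traction library lay above every sham library (17.7% of all genes). The fold change was positive in 37 of the 41, with a median log2 fold change of 0.70, where the median over all genes was −0.01. By lineage the median was 0.80 in the stromal, 0.92 in the leukocyte and 0.59 in the epithelial genes. Leaving out replicate 1 of the traction group moved the leukocyte median to 0.32 and the epithelial one to 0.10, while the stromal one stayed at 0.77. The count of 8 was not stable, at 0 in a fit of only these 6 libraries, 0 without sham replicate 1 or 2, 3 without sham replicate 3, 2 without traction replicate 1, 3 without traction replicate 3 and 17 without traction replicate 2, and at 25 with DESeq2. Of the libraries of Tem1lacZ/lacZ mice, which share the estimate of the spread, leaving out sham replicate 1 gave 5, sham replicate 3 gave 1, traction replicate 1 gave 15 and traction replicate 3 gave 4. Parva, Fermt2, Src and Bcar1 were not called without traction replicate 1 (adjusted p = 0.0552 to 0.0742) nor without traction replicate 3 (adjusted p = 0.0719 to 0.134), at log2 fold changes of 0.50 for Fermt2 to 1.08 for Bcar1.

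**Figure D3:**
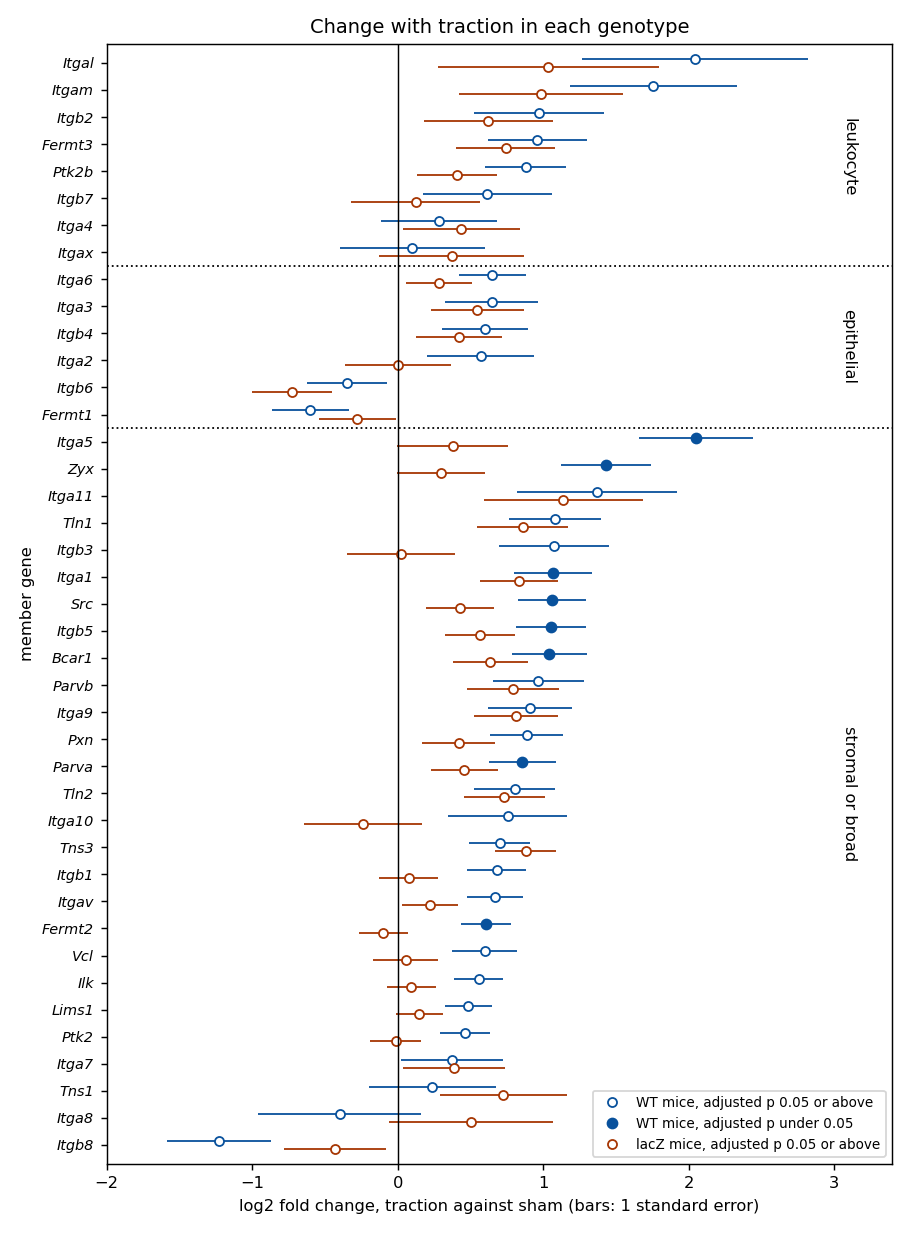
Log2 fold change of traction against sham for the 41 genes in Tem1WT/WT (blue) and Tem1lacZ/lacZ mice (brown), with bars of 1 standard error and filled points for an adjusted p under 0.05. The 8 filled points are all among the 27 stromal or broad genes of Tem1WT/WT mice, and 0 points are filled in Tem1lacZ/lacZ mice.

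Among the RGD receptors the rise was that of Itga5, the alpha subunit of the fibronectin receptor (chr15:103344286-103366791). Itga5 was at 23.0, 34.8 and 53.3 CPM in the sham group and 138, 104 and 218 CPM in the traction group of Tem1WT/WT mice. For Tem1lacZ/lacZ mice the levels of Itga5 were 36.3, 22.8 and 49.6 CPM with sham and 34.0, 49.6 and 57.6 CPM with traction. The 3 Tem1WT/WT traction libraries were the highest 3 of the 12, and the other groups overlapped each other. The log2 fold change with traction was 2.05 (SE 0.39, adjusted p = 0.0278) in Tem1WT/WT mice, or 4.14-fold, and 0.38 (SE 0.38, adjusted p = 0.794) in Tem1lacZ/lacZ mice. Itga5 was called in 10 of the 12 fits that left out 1 library, more than any other member, among them those without traction replicate 1 (2.09, adjusted p = 0.0446) and without traction replicate 3 (1.72, adjusted p = 0.0459). The exceptions were the fits without Tem1WT/WT sham replicate 1 or 2, where none of the 41 genes was called.

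Itgav, whose receptors hold vitronectin and release TGF-β from its latent form, was at 108, 108 and 119 CPM with sham and 199, 152 and 183 CPM with traction in Tem1WT/WT mice. The groups did not overlap, but the log2 fold change of 0.67 (SE 0.19, adjusted p = 0.0526) lay just outside the threshold. Without Tem1, Itgav was at 89.4, 59.3 and 81.8 CPM with sham and 69.5, 100.4 and 99.5 CPM with traction, below every Tem1WT/WT library of the same treatment. Itga8, which is known from smooth muscle-like cells, was at 2.09 CPM in replicate 1 of the Tem1WT/WT traction group and at 12.5 and 19.6 CPM in the other 2, a spread larger than its difference from the sham group (log2 fold change −0.40 (SE 0.56, adjusted p = 0.664)).

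Of the beta subunits that pair with these, Itgb5 (chr16:33829665-33949338) rose in Tem1WT/WT mice. Its levels were 138, 145 and 178 CPM with sham and 225, 279.8 and 451 CPM with traction, with a log2 fold change of 1.05 (SE 0.24, adjusted p = 0.0333). Without traction replicate 3, where Itgb5 was highest, the log2 fold change was 0.72 (adjusted p = 0.0676), outside the threshold. In Tem1lacZ/lacZ mice the levels were 145, 142 and 126 CPM with sham and 164, 215 and 232 CPM with traction. Those groups did not overlap either, and the log2 fold change there was 0.57 (SE 0.24, adjusted p = 0.6). Itgb1 was at 633, 723 and 919 CPM with sham and 1284, 1131 and 1229 CPM with traction in Tem1WT/WT mice. The log2 fold change of Itgb1 was 0.68 (SE 0.20, adjusted p = 0.0577) there and 0.07 (SE 0.20, adjusted p = 0.935) in Tem1lacZ/lacZ mice, whose 6 libraries lay between 615 and 957 CPM. Itgb3, a partner of Itgav on activated cells, had log2 fold changes of 1.07 (SE 0.38, adjusted p = 0.084) and 0.02 (SE 0.37, adjusted p = 0.991) in these comparisons.

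Itgb8 had its lower levels with traction, unlike Itgb1, Itgb3 and Itgb5. This subunit, which with Itgav binds latent TGF-β, was at 18.1, 15.6 and 17.1 CPM with sham and 4.83, 12.6 and 4.25 CPM with traction in Tem1WT/WT mice. Every traction library lay below every sham library, with a log2 fold change of −1.23 (SE 0.36, adjusted p = 0.0536), just outside the threshold. Tem1lacZ/lacZ mice had 27.2, 19.1 and 18.9 CPM with sham and 19.1, 14.7 and 14.5 CPM with traction, and in both treatments all their libraries lay above those of Tem1WT/WT mice. Itgb8 was called lower with upper quartile scaling, with DESeq2 and without traction replicate 2. Itgb6, the epithelial relative that also binds latent TGF-β, had log2 fold changes of −0.35 (SE 0.28, adjusted p = 0.416) in Tem1WT/WT mice and −0.73 (SE 0.28, adjusted p = 0.598) in Tem1lacZ/lacZ mice, where the groups did not overlap.

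The collagen receptors were led by Itga1, which with Itgb1 binds collagen IV and fibrillar collagens (chr13:114958079-115101964). Its levels in Tem1WT/WT mice were 28.2, 46.9 and 44.5 CPM with sham and 116, 77.9 and 57.2 CPM with traction, a log2 fold change of 1.07 (SE 0.27, adjusted p = 0.0393). Without traction replicate 1, where Itga1 was highest, it was 0.75 (adjusted p = 0.0997), outside the threshold. Levels of Itga1 in Tem1lacZ/lacZ mice were 30.7, 23.2 and 27.4 CPM with sham and 40.6, 57.9 and 46.5 CPM with traction, again with no overlap (log2 fold change 0.84 (SE 0.27, adjusted p = 0.598)). Itga1 was thus separated by traction in both genotypes, and averaged over them it rose by 0.95 on the log2 scale (adjusted p = 0.0249). Itga11, the fibroblast receptor for collagen I, was spread more widely. Its Tem1WT/WT levels were 21.4, 40.5 and 42.7 CPM with sham and 36.0, 81.4 and 153 CPM with traction, and the log2 fold change of 1.37 (SE 0.55, adjusted p = 0.119) was not past the threshold. The Tem1lacZ/lacZ levels of Itga11 were 42.2, 19.1 and 19.4 CPM with sham and 29.4, 84.9 and 63.5 CPM with traction. Within both traction groups Itga11 was lowest in replicate 1, the replicates with the lowest fibroblast marker sums. Itga2 and Itga10 did not pass the threshold in any comparison.

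The laminin receptors held 0 DEGs. Their largest change was that of Itga6, at 134, 138 and 134 CPM with sham and 285, 162 and 192 CPM with traction in Tem1WT/WT mice (log2 fold change 0.65 (SE 0.23, adjusted p = 0.084)). Without traction replicate 1 the log2 fold change of Itga6 was 0.36 (adjusted p = 0.25). In that library all 6 epithelial genes had the highest level of their group. The 4 laminin receptor genes had log2 fold changes of 0.37 to 0.65 in Tem1WT/WT mice and 0.29 to 0.55 in Tem1lacZ/lacZ mice.

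Itga9, a receptor subunit for tenascin and osteopontin, was at 25.7, 28.6 and 25.8 CPM with sham and 44.3, 55.2 and 51.2 CPM with traction in Tem1WT/WT mice. In Tem1lacZ/lacZ mice it was at 16.5, 13.5 and 20.9 CPM with sham and 16.0, 41.2 and 32.2 CPM with traction. The log2 fold changes were 0.91 (SE 0.29, adjusted p = 0.0643) and 0.81 (SE 0.29, adjusted p = 0.598), and averaged over the genotypes Itga9 rose by 0.86 on the log2 scale (adjusted p = 0.0325). Itga4, its relative on lymphoid and myeloid cells that binds VCAM-1, overlapped between sham and traction in both genotypes.

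In the leukocyte integrins 1 library carried most of the height. Itgal, the alpha subunit of LFA-1 with which leukocytes hold ICAM-1, was at 23.2, 21.2 and 20.4 CPM with sham and 219, 30.1 and 17.3 CPM with traction in Tem1WT/WT mice. Replicate 1 was thus far above all other libraries and replicate 3 was below the sham group. The log2 fold change was 2.04 (SE 0.78, adjusted p = 0.103), and 0.12 (adjusted p = 0.876) without that replicate. For Tem1lacZ/lacZ mice the levels of Itgal were 13.0, 9.37 and 11.7 CPM with sham, below all Tem1WT/WT sham libraries, and 11.5, 36.3 and 22.1 CPM with traction.

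Itgam, the alpha subunit of the complement receptor of neutrophils and macrophages (chr7:128062640-128118491), was at 108, 90.5 and 140.2 CPM with sham and 679, 289 and 177 CPM with traction in Tem1WT/WT mice. All 3 traction libraries lay above the sham libraries. The log2 fold change of 1.76 (SE 0.57, adjusted p = 0.0719) did not pass the threshold, and without replicate 1 it was 1.03 (adjusted p = 0.227). Without Tem1, Itgam was at 67.2, 40.6 and 124 CPM with sham and 67.2, 221 and 171 CPM with traction, with replicate 1 inside the sham range. GENCODE vM21 places 3450 of the 4926 exon bases of Itgam also in Gm49368 on the same strand.

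Itgb2, the beta subunit shared by these receptors, was at 112, 85.2 and 170.4 CPM with sham and 368, 205 and 147 CPM with traction in Tem1WT/WT mice, with overlap and a log2 fold change of 0.97 (SE 0.45, adjusted p = 0.165). Levels of this gene in Tem1lacZ/lacZ mice were 90.1, 53.0 and 107 CPM and 71.7, 114 and 199.7 CPM. Itgax, which marks dendritic cells and some macrophages, was at 39.6, 25.3 and 51.8 CPM with sham and 73.5, 25.7 and 26.0 CPM with traction in Tem1WT/WT mice. Its log2 fold change was 0.10 (SE 0.50, adjusted p = 0.911), and without replicate 1 it was −0.61 (adjusted p = 0.402), the opposite sign. Upper quartile scaling and limma-voom also turned its sign. The summed level of the 8 leukocyte genes was 1595, 710.2 and 500.0 CPM in the traction group of Tem1WT/WT mice and 392, 324 and 505 CPM in the sham group. In Tem1lacZ/lacZ mice this sum was 239, 491 and 585 CPM with traction and 283, 180.4 and 346 CPM with sham. The summed neutrophil markers did not run with it there, at 569, 295 and 278 CPM with traction. Replicate 1 of that group was thus highest for the neutrophil sum and lowest for the leukocyte sum. It also had the highest keratinocyte marker sum. With sham the neutrophil sum was 214 to 219 CPM in Tem1lacZ/lacZ mice, above the 116 to 121 CPM of Tem1WT/WT mice. The single markers did not share this difference. Of the 10 tested, 6 were higher and 4 lower in Tem1lacZ/lacZ sham mice. At an unadjusted p under 0.05 there were 0 (11.7% of all genes). Beside the neutrophil sums given above, the 10 macrophage markers summed to 5457, 4895 and 4177 CPM in the Tem1WT/WT traction group and to 2626 to 4306 CPM in the sham group. The T cell markers in the files, 6 of the 7 listed, summed to 110.2 CPM in traction replicate 1 and to 23.2 to 54.7 CPM in the other 11 libraries.

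**Figure D4:**
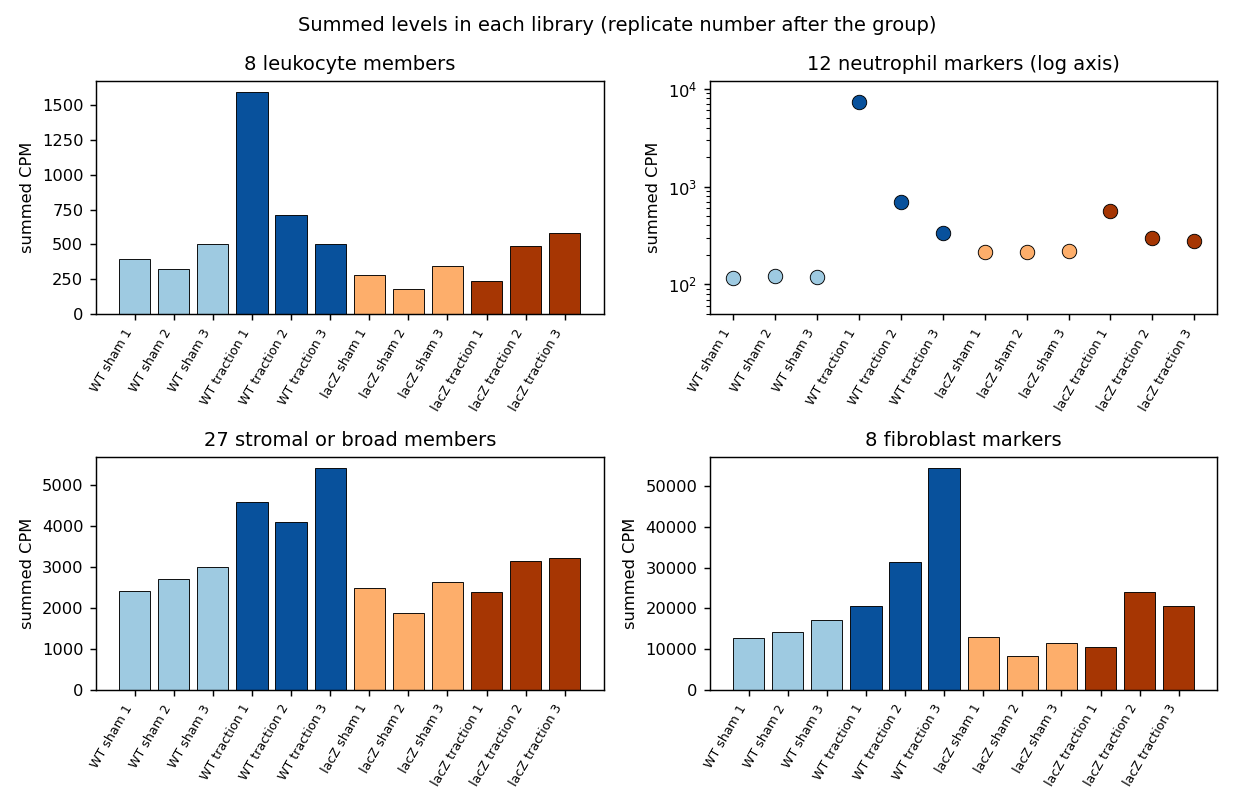
Summed CPM in each of the 12 libraries of the 8 leukocyte genes, 12 neutrophil markers (log axis), 27 stromal or broad genes and 8 fibroblast markers. The leukocyte genes (1595 CPM) and the neutrophil markers (7296 CPM) peak in replicate 1 of the Tem1WT/WT traction group, and the stromal genes (5421 CPM) and the fibroblast markers (54599 CPM) in replicate 3. In replicate 1 of the Tem1lacZ/lacZ traction group the neutrophil markers are the highest of their group (569 CPM) and the leukocyte genes the lowest (239 CPM).

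The sum of the stromal and broad genes, in contrast, was higher in every traction library than in every sham library of Tem1WT/WT mice. It was 4588, 4105 and 5421 CPM with traction and 2412, 2698 and 3002 CPM with sham in Tem1WT/WT mice. It was 2376, 3132 and 3210.25 CPM with traction and 2474, 1859 and 2625 CPM with sham in Tem1lacZ/lacZ mice, and those groups overlapped. Such sums weigh genes with many counts most. In the Tem1WT/WT traction group Itgb1 and Tln1 had means of 1215 and 597 CPM, beside a mean stromal sum of 4705 CPM. For the leukocyte sum, with a mean of 935 CPM there, Itgam and Itgb2 had 381 and 240 CPM. Beside the fibroblast sums, the 6 endothelial markers summed to 739, 807 and 818 CPM with traction and to 293 to 438 CPM with sham in Tem1WT/WT mice. Of these 6 markers 4 were called higher (5.61% of all genes). Of the lists summed above, 6 of the 10 neutrophil markers tested and 2 of the 8 fibroblast markers were called higher there. So were 2 of the 10 macrophage and 0 of the 6 T cell markers, while 1 of the 7 keratinocyte markers was called lower. In the same comparison the sum of the 6 hair follicle markers was 2352 to 4023 CPM against 7461 to 14780.4 CPM, with 2 called lower (3.54% of all genes). That of the 5 skeletal muscle markers was 165 to 1173 CPM against 617 to 7406 CPM, with 0 called. The part of these cell types in the sums was not tested.

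Among the proteins that activate and anchor integrins, Parva and Fermt2 were DEGs. Parva, a parvin that links ILK to actin, was at 58.1, 70.1 and 81.6 CPM with sham and 102, 104 and 173 CPM with traction in Tem1WT/WT mice (log2 fold change 0.86 (SE 0.23, adjusted p = 0.0447)). Tem1lacZ/lacZ mice had Parva at 63.1, 56.0 and 71.5 CPM and 69.6, 100.3 and 92.0 CPM. Fermt2, the broadly expressed kindlin, was at 86.9, 87.9 and 91.0 CPM with sham and 123, 127 and 155 CPM with traction in Tem1WT/WT mice. This was the smallest of the 8 rises (log2 fold change 0.61 (SE 0.17, adjusted p = 0.0499)). For Tem1lacZ/lacZ mice the levels of Fermt2 were 97.1, 64.4 and 97.2 CPM with sham and 72.4, 85.9 and 83.5 CPM with traction, so that the groups overlapped and the fold change was −0.10.

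Tln1, which binds the beta subunit tail and starts activation, was at 262, 282 and 302 CPM with sham and 647, 500.3 and 643 CPM with traction in Tem1WT/WT mice, a log2 fold change of 1.08 (SE 0.32, adjusted p = 0.0535). Without Tem1, Tln1 was at 176, 114 and 184 CPM with sham and 144, 346 and 370.1 CPM with traction. Replicate 1 of that traction group lay in the sham range, and the other 2 lay above it. The other kindlins differed in sign. Fermt3, the kindlin of blood cells, had a log2 fold change of 0.96 (SE 0.34, adjusted p = 0.0863) in Tem1WT/WT mice without overlap, and Fermt1, that of keratinocytes, had −0.60 (SE 0.27, adjusted p = 0.151) with overlap. Ilk, Lims1, Parvb, Tln2 and Tns3 also separated sham from traction in Tem1WT/WT mice with no DEG call, at log2 fold changes of 0.49 to 0.97, while Vcl and Tns1 overlapped.

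The signalling and scaffold genes all had higher means with traction than with sham in Tem1WT/WT mice. All 6 were higher at an unadjusted p under 0.05 with traction in Tem1WT/WT mice (16.7% of all genes). Of them Zyx, Src and Bcar1 were DEGs (5.61% of all genes). Zyx (chr6:42349511-42360213), a LIM protein that gathers on strained actin fibres, was at 74.6, 87.8 and 99.6 CPM with sham and 338, 158 and 210.4 CPM with traction. Levels of Zyx in Tem1lacZ/lacZ mice were 67.9, 53.0 and 82.9 CPM with sham and 54.7, 92.2 and 104 CPM with traction. The log2 fold change was 1.43 (SE 0.31, adjusted p = 0.0317) in the former and 0.30 (SE 0.30, adjusted p = 0.796) in the latter. Without traction replicate 1, where Zyx was highest, it was 1.05 (adjusted p = 0.061) in Tem1WT/WT mice.

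Src, the kinase that phosphorylates FAK and p130Cas, was at 27.1, 33.4 and 30.4 CPM with sham and 74.0, 40.4 and 75.0 CPM with traction in Tem1WT/WT mice (log2 fold change 1.06 (SE 0.23, adjusted p = 0.0326)). Tem1lacZ/lacZ mice had Src at 26.2, 21.2 and 21.9 CPM and 25.3, 37.2 and 30.8 CPM. Bcar1, which encodes p130Cas, a scaffold that unfolds under stretch, was at 17.7, 20.7 and 19.5 CPM with sham and 36.4, 32.5 and 50.4 CPM with traction in Tem1WT/WT mice (log2 fold change 1.04 (SE 0.26, adjusted p = 0.0381)). For Tem1lacZ/lacZ mice the levels of Bcar1 were 17.6, 11.2 and 13.1 CPM and 14.3, 28.1 and 22.6 CPM. Ptk2, which encodes FAK, had the smallest fold change of the 6. It was at 46.6, 63.7 and 55.4 CPM with sham and 62.7, 71.5 and 94.2 CPM with traction in Tem1WT/WT mice, with overlap (log2 fold change 0.46 (SE 0.17, adjusted p = 0.0998)). Without Tem1, Ptk2 was at 61.6, 53.6 and 55.9 CPM and 50.1, 61.7 and 57.8 CPM. Ptk2b, its relative in blood cells, had a log2 fold change of 0.88 (SE 0.28, adjusted p = 0.0642) in Tem1WT/WT mice. Pxn, the paxillin gene, was the first gene outside the threshold (log2 fold change 0.89 (SE 0.25, adjusted p = 0.0504)), and Fermt2 the last inside.

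**Figure D5:**
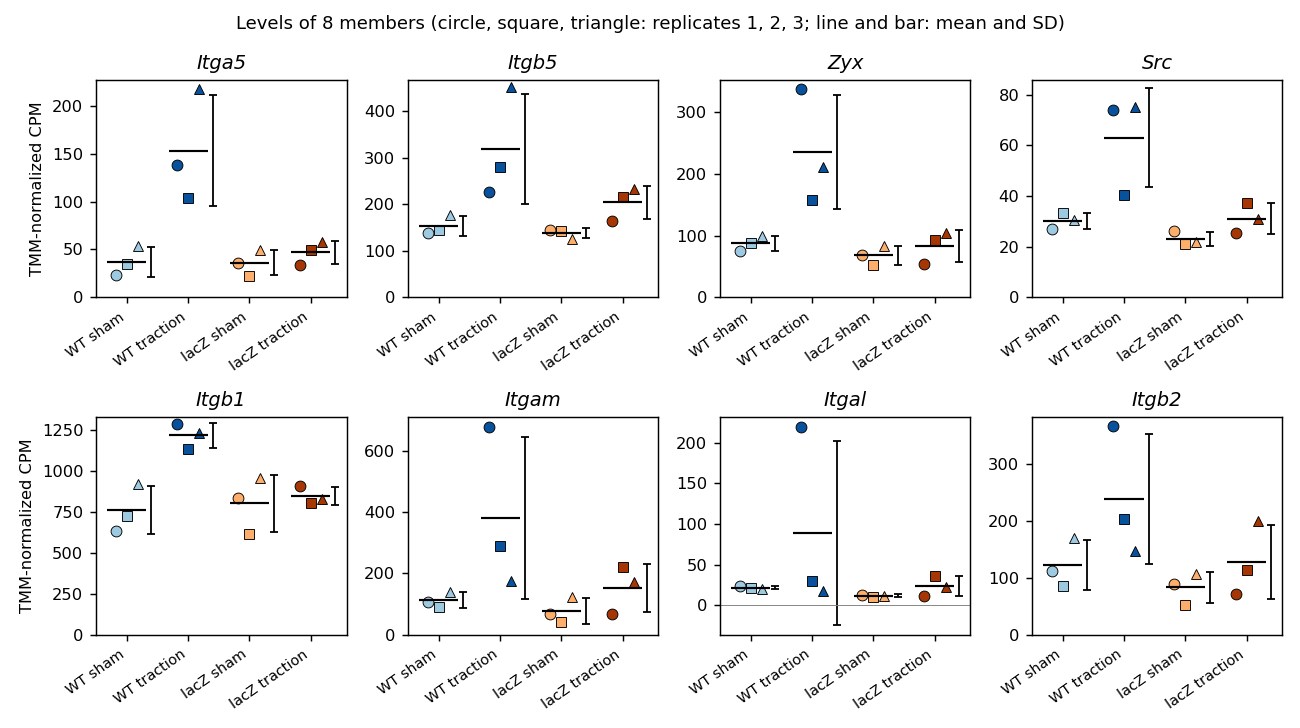
TMM-normalized CPM of 8 genes in each library (circle, square and triangle for replicates 1, 2 and 3), with the mean (line) and SD (bar) of each group. In the Tem1WT/WT traction group the libraries of Itga5, Itgb5, Zyx, Src and Itgb1 all lie above the sham libraries, while Itgal is at 219 CPM in replicate 1 and at 17.3 CPM in replicate 3.

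The same question was put to the mice without Tem1. Traction in Tem1lacZ/lacZ mice gave 0 DEGs among the 41 genes in edgeR, as among all genes tested (0%), and 0 with DESeq2 among the 41. At an unadjusted p under 0.05 there were 8 higher genes, all stromal (5.66% of all genes), and 1 lower one, Itgb6 (463 of all 18853 genes). The groups did not overlap in 5 genes higher with traction (6.77% of all genes), which were Itga1, Itga3, Itgb5, Tln2 and Tns3. Fold changes were positive in 35 of the 41 (9143 of all 18853 genes), with a median of 0.42 (−0.01 over all genes). Tns3, a tensin that couples integrins to actin, was the gene with the largest change relative to its error. It was at 53.5, 56.1 and 57.1 CPM with sham and 66.5, 117 and 124 CPM with traction in these mice, and at 99.0, 92.9 and 95.8 CPM and 149, 134 and 184 CPM in Tem1WT/WT mice. The log2 fold changes of Tns3 were 0.88 (SE 0.21, adjusted p = 0.598) and 0.70 (SE 0.21, adjusted p = 0.0579). Without traction replicate 1 of the Tem1lacZ/lacZ mice, Itga9 and Tns3 were called, and limma-voom called Itga1, Itgb5, Tln1 and Tns3.

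Whether the response to traction differed between the genotypes was tested by the interaction. No gene of the 41 was called in edgeR, nor any of all genes tested (0%), and DESeq2 called 0 of the 41. At an unadjusted p under 0.05 there were 3 genes with a smaller response in Tem1lacZ/lacZ mice (4.46% of all genes), Itga5, Zyx and Fermt2. Their interaction log2 fold changes were −1.67 (SE 0.54), −1.13 (SE 0.43) and −0.70 (SE 0.24), each with an adjusted p of 0.548. The interaction was below 0 in 33 of the 41 (9473 of all 18853 genes), with a median of −0.38 (−0.0024 over all genes). So a difference between 8 DEGs in one genotype and 0 in the other was not shown as a difference in response. Averaged over both genotypes, traction raised 14 of the 41 genes (6.5% of all genes) and lowered 0. These were Itga1, Itga5, Itga9, Itgb5, Tln1, Tln2, Parva, Parvb, Tns3, Src, Bcar1, Pxn, Zyx and, as the only leukocyte gene, Fermt3 (log2 fold change 0.85 (SE 0.24, adjusted p = 0.0487)). The smallest adjusted p was that of Tns3, 0.0226, at 0.79. The other genes of this set had log2 fold changes of 0.65 for Pxn to 1.21 for Itga5. Fermt2, a DEG in Tem1WT/WT mice, was not in this set. The count of 14 fell to 0 without Tem1WT/WT sham replicate 1 or 2, Tem1lacZ/lacZ sham replicate 2 or Tem1lacZ/lacZ traction replicate 2 or 3. It was 2 without Tem1lacZ/lacZ sham replicate 3, 6 without sham replicate 1 of those mice, 8 and 9 without replicate 3 of the Tem1WT/WT sham and traction groups, and 21 without Tem1WT/WT traction replicate 2.

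The genotypes were then compared within the traction groups. This comparison shares the 3 Tem1WT/WT traction libraries with the first, so a high value there enters both. None of the 41 genes was a DEG in edgeR, against 0.106% of all genes. At an unadjusted p under 0.05 there were 25 genes lower in Tem1lacZ/lacZ mice (15.1% of all genes) and 1 higher, Itgb8 (2087 of all 18853 genes). DESeq2 called 12, and without Tem1WT/WT traction replicate 2 edgeR called 10. In 18 genes every Tem1lacZ/lacZ library lay below every Tem1WT/WT library (13.7% of all genes), 17 of them stromal and 1, Ptk2b, leukocyte. The median log2 fold change was −0.64, and 0.01 over all genes. The smallest adjusted p was that of Itgav, 0.0829, at a log2 fold change of −0.99 (SE 0.19). Itga5 had −1.70 (SE 0.39, adjusted p = 0.0868), Zyx had −1.49 (SE 0.31, adjusted p = 0.0834) and Src had −1.02 (SE 0.23, adjusted p = 0.0848). All 6 signalling and scaffold genes were without overlap, whereas 0 of the 5 leukocyte integrins and 0 of the 4 laminin receptors were. The leukocyte median was −0.94, and −0.43 without Tem1WT/WT replicate 1. Itgal had a log2 fold change of −1.93 with all libraries and 0.0114 without that replicate.

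In the sham groups some of these genes already lay apart between the genotypes. None was a DEG in edgeR or DESeq2, against 0.0106% of all genes, and 5 were lower in Tem1lacZ/lacZ mice at an unadjusted p under 0.05 (6.62% of all genes). In 17 genes, 5 of them leukocyte, all Tem1lacZ/lacZ libraries lay below all Tem1WT/WT libraries (13.8% of all genes). The median log2 fold change was −0.39 over the 41 and −0.61 over the leukocyte genes, and −0.01 over all genes. The smallest adjusted p was 0.409, shared by Itgav (log2 fold change −0.54), Tln1 (−0.83) and Tns3 (−0.79). Itga5, Zyx, Itgb1, Ptk2, Ilk and Fermt2 overlapped between the sham groups. Itga5 differed least of the RGD alpha subunits there, by −0.03.

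The members were set beside the other genes of the adhesion pathway and the ligands. With traction in Tem1WT/WT mice 5.61% of all genes rose and 3.54% fell, with a median log2 fold change of −0.01. Of 53 tested genes from a list of 55 other adhesion genes, 11 rose and 1 fell, and their median was 0.44. The 3 with the smallest p were Actn1, an actin crosslinker at adhesions (log2 fold change 1.04, SE 0.18, adjusted p = 0.0252), Pdlim7, a LIM protein of stress fibres (log2 fold change 1.07, SE 0.20, adjusted p = 0.0252), and Kank1, which uncouples talin from actomyosin and was the 1 that fell (log2 fold change −0.99, SE 0.22, adjusted p = 0.0329). Actn1 was at 104, 135 and 134 CPM with sham and 293, 217 and 257 CPM with traction in Tem1WT/WT mice, and at 148, 115 and 117 CPM and 131, 164 and 133 CPM in Tem1lacZ/lacZ mice. The Tem1WT/WT traction libraries were the highest 3 of the 12 for Actn1, which was picked by its small p in that comparison.

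Of the integrin ligands 21 of 24 were tested. With traction in Tem1WT/WT mice 6 rose (5.61% of all genes) and 0 fell (3.54%), with a median of 1.21. Those with the smallest p were Thbs1, thrombospondin 1 (log2 fold change 2.93, SE 0.51, adjusted p = 0.0252), Spp1, osteopontin (log2 fold change 3.44, SE 0.68, adjusted p = 0.0288), and Tnc, tenascin C (log2 fold change 3.75, SE 0.78, adjusted p = 0.031). Spp1, which binds Itgav and Itga9 receptors, was at 16.1, 48.0 and 93.5 CPM with sham and 1019, 262 and 429 CPM with traction in Tem1WT/WT mice. Levels of this gene in Tem1lacZ/lacZ mice were 26.8, 41.7 and 44.3 CPM and 248, 96.0 and 133 CPM, so that traction separated the groups in both genotypes. Tnc, a ligand of Itga9 receptors, was at 88.9, 417 and 309.8 CPM and 7503, 1049 and 2411 CPM in Tem1WT/WT mice, and at 521, 216 and 439 CPM and 673, 571 and 308 CPM in Tem1lacZ/lacZ mice, where the groups overlapped. All 3 ligands were highest in replicate 1 of the Tem1WT/WT traction group.

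GENCODE vM21 gives 12 of the 41 genes exon bases in common with another gene. After Itgam the longest stretches lie on the opposite strand for Vcl (Ap3m1, 2090 bases) and Ilk (Taf10, 1533 bases) and on the same strand for Itga10 (Gm42957, 1739 bases). The strand setting of the counting, which could separate only the opposite-strand cases, is not given in the sources used here. Nor are the annotation and the way reads in shared stretches were counted, on which the same-strand cases depend. Reads in these stretches could thus not be assigned to a gene. The DEG Itga1 shares 451 bases with Gm49395 on the same strand, and Zyx shares 236 with Epha1 on the opposite strand.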

How the data were processed

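Scar RNA of 12 mice was sequenced as 150-bp paired-end reads from stranded poly(A) libraries. The authors trimmed reads with fastp 0.20.0, aligned them to GRCm38 with HISAT2 2.1.0 and deposited raw counts per gene from featureCounts 2.0.0. The annotation, strand setting and treatment of multi-mapped reads are not given in the sources used here. No library was a copy of another.

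Counts were filtered with filterByExpr, scaled by TMM and tested with edgeR 4.0.16 (robust quasi-likelihood, two-sided, 8 residual degrees of freedom) in R 4.3.3, and adjusted over all 18853 genes tested. The paper names DESeq2 for its test, and DESeq2 1.42.0 and limma 3.58.1 (voom with sample weights) served as alternatives, with other filters and scalings, a replicate block, fits of 6 libraries, an adjusted p under 0.1 and leaving out each library. The fit was tested on simulated data. Coordinates and upstream sequences came from RefSeq (GRCm38.p6), and figures were drawn with matplotlib 3.10.9.

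The members and lists were chosen with earlier results of these data known. Printed singly were members called in any comparison, the largest change in Tem1WT/WT mice of each role, and Itgam, Itgal, Itgax, Itgb2, Itga5, Itga11, Itgav, Itgb1, Ptk2 and Src. Other members named here, such as Itga8, Itgb3 and Itgb6, were added after their values were seen.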

Additional observations from a re-analysis of the deposited data

How the results depend on the processing

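With traction in Tem1WT/WT mice 8 members were called, 25 with DESeq2, 4 with limma-voom, 26 at an adjusted p under 0.1 and 0 with only the 6 libraries compared. Leaving out 1 library gave 0 to 17. Averaged over genotypes 14 were called, 23 with DESeq2 and 24 at the looser threshold, and 0 to 21 without 1 library. With traction in Tem1lacZ/lacZ mice limma-voom called 4 and leaving out 1 library gave 0 to 2, against 0. Between the genotypes with traction DESeq2 called 12, the looser threshold 10 and leaving out 1 library 0 to 10, against 0. The cause of these shifts was not tested. Other filters and scalings gave 6 to 10 in Tem1WT/WT mice. No alternative called a member between the sham groups or in the interaction. Itgax changed sign in Tem1WT/WT mice with upper quartile scaling (−0.0324) and limma-voom (−0.25), with a range of −0.61 to 0.37 when 1 library was left out. Between the genotypes with traction it was 0.0167 with limma-voom, and leaving out 1 library gave −0.96 to 0.30, against −0.95 to 0.0331 for Itga11 and −2.41 to 0.0114 for Itgal. Of the other values for named members under an alternative, 1129 kept their direction and their side of the threshold, called or not, 186 lost a call and 67 gained one. This pools members not called in the main fit, which had no call to lose. Of the 8 called in Tem1WT/WT mice, Itga5 stayed called most often, in 18 of 21 alternatives, and Fermt2 least, in 6. Of the 14 averaged over genotypes these were Tns3, in 15 of 20, and Fermt3, in 5. The looser threshold counts as an alternative here. Upper quartile scaling moved the median of all genes to −0.12 with traction in Tem1WT/WT mice and that of the members to 0.59.

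Same-numbered libraries came from different mice, and the deviations from the group means correlated above 0.1 in 8 of 18 same-numbered pairs, with a range of −0.32 to 0.25. Among different-numbered pairs between groups, only pairs within Tem1lacZ/lacZ mice lay above 0.1. These were sham replicate 1 with traction replicate 3 (0.37) and sham replicate 2 with traction replicate 1 (0.34), both above every same-numbered pair. With the replicate block 6 members were called with traction in Tem1WT/WT mice and 13 over both genotypes, and 0 in the other comparisons. Bcar1, Fermt2 and Itga1 were not called in the former, nor Fermt3 and Pxn in the latter, and Itgb3 was called in both.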
